A study of Mus musculus with 3 samples.

Results

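Genes on chromosome 9 around Zbtb16, the gene that encodes the transcription factor PLZF, were compared in thymic γδNKT cells that carried no, 1 or 2 copies of the luxoid allele. The 10 genes were Htr3a, Htr3b, Usp28, Zw10, Ttc12, Ncam1, Nnmt, Rbm7, Cadm1 and Sorl1, all on this chromosome, out of 19518 measured genes. They were chosen with earlier results of these data known, and position alone does not give this list. Each had exactly 1 probe set that carried its symbol alone. The question was whether a stretch of chromosome carried along with the luxoid mutation shows in the expression data.

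The cells were CD4+CD8α- thymocytes, double-sorted from female C57Bl/6 mice 3 to 4 weeks old, and the labels call them gammadelta NKT cells. Per the study's methods, the mice were Rag1-/- and transgenic for the Vγ1Vδ6.4 TCR, in the controls as well. The genotypes were PLZF+/+, PLZF+/lu and PLZFlu/lu, called wild-type, heterozygous and luxoid cells here, with 1 Affymetrix Mouse Gene 1.0 ST array each. Whether an array held RNA of several mice is not stated, and neither is the promoter that drives the transgene. No difference here has a replicate check, since each genotype has 1 array. A change of more than 2-fold is therefore a threshold of size and no p-value is attached to it. In a sorted population, fewer cells of a type and less RNA per cell cannot be told apart.

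When a mutation is moved to another strain by backcrossing, a segment of the donor chromosome around it travels along and shortens with each generation. Genes within such a segment can differ between mutant and wild-type mice because of the donor's alleles, apart from any action of the mutated gene. Luxoid is a point mutation in Zbtb16, and the study's methods describe many generations of backcrossing to C57BL/6. Expression arrays do not type alleles, so the extent of a donor segment was not measured here.

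The table of RefSeq promoters used here (GRCm38.p6) had entries for 6 of the 10 genes and none for the other 4. These windows run from 250 bases before to 50 bases after the start, 5′ to 3′ on the gene's strand. The following 4 show the genes whose levels the results turn on, namely Usp28 and Sorl1, which differed most between the genotypes, Rbm7, the brightest, and Htr3b, one of the dimmest. Capitals mark the dinucleotide CG, which reads the same on both strands. The windows are chr9:48985135-48985434 on the plus strand for Usp28 and, on the minus strand, chr9:42124248-42124547 for Sorl1, chr9:48495281-48495580 for Rbm7 and chr9:48964941-48965240 for Htr3b.
Usp28: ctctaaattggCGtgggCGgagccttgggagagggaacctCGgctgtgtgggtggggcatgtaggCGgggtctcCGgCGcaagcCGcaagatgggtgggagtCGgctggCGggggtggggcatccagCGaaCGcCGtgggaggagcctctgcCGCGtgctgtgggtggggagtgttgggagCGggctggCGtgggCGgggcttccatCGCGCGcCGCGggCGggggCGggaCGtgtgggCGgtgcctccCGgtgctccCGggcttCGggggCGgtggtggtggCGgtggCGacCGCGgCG
Sorl1: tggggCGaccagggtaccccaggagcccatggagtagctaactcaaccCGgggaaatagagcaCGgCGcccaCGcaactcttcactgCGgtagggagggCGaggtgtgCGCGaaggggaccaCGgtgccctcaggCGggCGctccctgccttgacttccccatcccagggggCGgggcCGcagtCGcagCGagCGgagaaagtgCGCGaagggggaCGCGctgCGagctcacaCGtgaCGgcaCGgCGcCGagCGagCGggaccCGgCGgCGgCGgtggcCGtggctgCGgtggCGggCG
Rbm7: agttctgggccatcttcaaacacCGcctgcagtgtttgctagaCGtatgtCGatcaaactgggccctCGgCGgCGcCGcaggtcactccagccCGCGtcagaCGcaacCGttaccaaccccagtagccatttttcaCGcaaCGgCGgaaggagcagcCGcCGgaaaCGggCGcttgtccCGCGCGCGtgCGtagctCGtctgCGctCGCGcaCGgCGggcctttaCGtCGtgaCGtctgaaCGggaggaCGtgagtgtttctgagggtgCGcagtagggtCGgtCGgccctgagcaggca
Htr3b: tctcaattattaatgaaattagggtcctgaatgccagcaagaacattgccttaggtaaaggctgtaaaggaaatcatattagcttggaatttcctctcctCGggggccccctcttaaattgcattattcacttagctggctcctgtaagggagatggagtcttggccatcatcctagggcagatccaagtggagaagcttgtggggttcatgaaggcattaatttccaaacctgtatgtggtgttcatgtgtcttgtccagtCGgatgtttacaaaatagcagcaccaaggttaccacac

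The CG count was 37 for Rbm7 and for this Sorl1 window, 35 for Usp28, 24 for Zw10, 14 for Ttc12 and 2 for Htr3b. A further Sorl1 start site had 9. Of all 32851 promoters in the table, 94.6% hold at least 1 CG and the median is 7. The motif TATAAA was found on neither strand in any of the 7 windows and stands in 13.6% of all promoters. Among genes measured on the arrays, those with 26 or more CG in their richest promoter were above the background level in 84.1% of cases (4207 genes), against 54.1% of those with fewer (11333 genes). Rbm7, Sorl1, Usp28 and Zw10 were far above that level, Ttc12 lay at it and Htr3b below it. The genes share a chromosome and the windows were few, so this is a description.

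**Figure D1:**
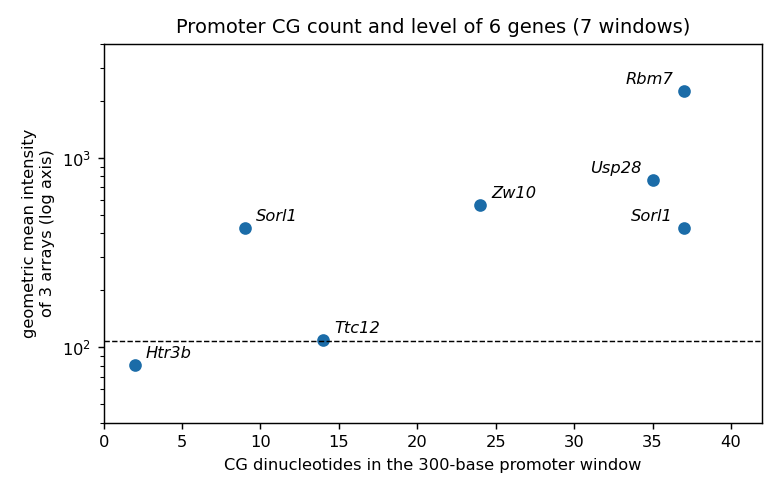
Geometric mean intensity of the 3 arrays (log axis) against the number of CG dinucleotides in the 300-base promoter window, 1 point per window and 2 for Sorl1. Htr3b (2 CG) lies below and Ttc12 (14 CG) at the dashed line, the 95th percentile of olfactory receptor values (108), and the windows of Zw10, Usp28, Rbm7 and Sorl1 lie above it.

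Olfactory receptor genes, whose known role is in the nose, served to judge background, and 95% of the values of their 1033 probe sets lie below an intensity of 108. The markers of T cells were far above this, with all 9 measured markers above the level and Cd3g, a chain of the CD3 complex, at 11388 in wild-type, 12236 in heterozygous and 11410 in luxoid cells. Markers of other cells were above it in part, namely 2 of 5 for B cells, 2 of 6 for myeloid cells, 2 of 6 for NK cells, 3 of 6 for thymic epithelium and stroma and 2 of 4 for erythroid cells. The brightest of these was Cd79b, a chain of the B cell receptor complex, at 1658 in wild-type, 1440 in heterozygous and 1406 in luxoid cells, while Cd79a, its partner, was at 38.8 on each array. The others above the level reached at most 241 (Col1a1, a collagen gene), and Ms4a1, Lyz2, Csf1r and Ncr1 lay below it on each array. The array medians were 160.0, 161.8 and 159.7 for wild-type, heterozygous and luxoid cells. The deposited values repeat across arrays to an unusual extent, with 46.8% of the 19518 genes at the same value on all 3 arrays (within 1e-06 on the log2 scale). How probes were summarised is not stated, so a repeated value does not show that a level was the same.

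Zbtb16 had an intensity of 8796 in wild-type, 6143 in heterozygous and 2890 in luxoid cells. Its nearest measured neighbours on either side were dim. On one side stood Nnmt, which encodes the enzyme that methylates nicotinamide, at 99.1 in wild-type, 99.1 in heterozygous and 103 in luxoid cells, below background on each array. On the other side stood Htr3a, a subunit of the serotonin-gated ion channel, at 53.5 on each array. Htr3b, the partner subunit that stands next to it, was at 81.0 on each array. These 3 genes therefore give no information on a difference, since their levels cannot be told from background.

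Of the 10 genes, 6 exceeded the background level on at least 1 array, near the share among all genes (61.3%). Rbm7, the RNA-binding subunit of the complex that brings nuclear transcripts to the exosome, was the brightest at 2256 on each array. It is the third measured gene from Zbtb16 on the side of Nnmt. Zw10, a kinetochore protein that also acts in the tethering of vesicles to the endoplasmic reticulum, was at 562 on each array. It is the fourth measured gene on the side of Htr3a. Ttc12, which takes part in the assembly of the motor arms of cilia, was at 109 on each array and thus at the edge of background. Ncam1, a neural cell adhesion molecule that stands 10 measured genes from Zbtb16, was below background at 84.3, 85.3 and 85.3.

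**Figure D2:**
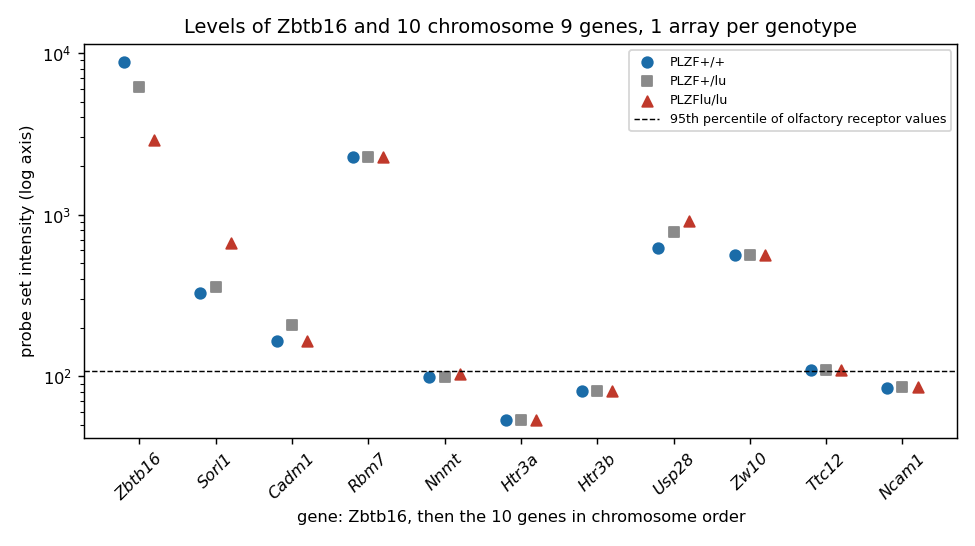
Probe set intensity (log axis) of Zbtb16 and the 10 genes, each symbol being 1 array, without error bars; circles mark PLZF+/+ (wild-type), squares PLZF+/lu (heterozygous) and triangles PLZFlu/lu (luxoid), and the dashed line is the 95th percentile of olfactory receptor values (108). Zbtb16 steps down from 8796 to 2890, Sorl1 and Usp28 step up, and Rbm7, Zw10, Ttc12, Htr3a and Htr3b each repeat the same deposited value.

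Usp28 was the close neighbour with the largest difference. It encodes a deubiquitinase known for stabilising MYC and for its link to the DNA damage response, and it is the third measured gene from Zbtb16 on the side of Htr3a. Its intensity was 622 in wild-type, 783 in heterozygous and 908 in luxoid cells. The order was the reverse of that of Zbtb16, and the heterozygous value lay between the outer genotypes. Such an order was common: it held for 2225 of the 4784 genes with 3 different values. The difference between wild-type and luxoid cells was -0.55 on the log2 scale, or 1.46-fold, short of 2-fold and of 1.5-fold. Of all genes, 1.65% differed by as much or more in either direction. Usp28 is described here as the largest difference among the close neighbours, so this share does not set it apart. Zw10, next to Usp28, had the same value on each array, which does not show that its level was the same.

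Sorl1, a sorting receptor of the VPS10 family known for the traffic of amyloid precursor protein, was at 327 in wild-type, 358 in heterozygous and 669 in luxoid cells. The heterozygous value lay close to the wild-type one, and the luxoid value stood apart. The gene was 2.05-fold lower in wild-type cells than in luxoid cells (-1.03 on the log2 scale) and 1.87-fold lower in heterozygous cells than in luxoid cells. It was thus 1 of the 10 genes past 2-fold between the outer genotypes, against 0.430% of all genes (84 of 19518). The 10 genes were chosen with earlier results of these data known, so this count is a description. It rests on a value at the threshold. With 32 added to each intensity the log2 difference was -0.97, and with the wild-type and heterozygous values averaged it was also -0.97, so that none of the 10 genes was past 2-fold.

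Between Sorl1 and Zbtb16 stand 84 other measured genes, and whether a donor segment reaches Sorl1 was not measured. Of the 10 measured genes on each side of Sorl1, none differed by more than 1.32-fold between wild-type and luxoid cells. Only 3.13% of all genes differed by as much or more, so this does not set the group apart. Above background were 10 of the 20, and 11 had the same value on all 3 arrays. The largest difference among these 20 was that of Crtam, a lymphocyte receptor for the product of Cadm1, at 169 in wild-type, 212 in heterozygous and 223 in luxoid cells, or -0.40 on the log2 scale. Oaf, a gene in the same group, was higher in wild-type cells, at 491 in wild-type, 364 in heterozygous and 381 in luxoid cells. Sc5d, a sterol synthesis gene and the next measured gene towards Zbtb16, was at 994, 938 and 962. Crtam and Oaf differed in opposite directions, each by less than Sorl1. Neither difference has a replicate check.

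Cadm1, an immunoglobulin-type adhesion molecule 9 measured genes from Zbtb16, had another pattern. It was at 165 in wild-type, 206 in heterozygous and 166 in luxoid cells. The heterozygote was the highest, and the outer genotypes differed by -0.01 on the log2 scale. All 3 values lay less than 2-fold above background.

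Against wild-type cells, no gene of the 10 was past 1.5-fold in heterozygous cells, where 0.794% of all genes were (0.133% past 2-fold). Between heterozygous and luxoid cells, Sorl1 was the gene of the 10 past 1.5-fold, where 0.533% of all genes were (0.123% past 2-fold). Between wild-type and luxoid cells, 5 of the 10 were lower in wild-type cells, 5 had the same value and 0 were higher, with a median log2 difference of -0.01. Among the 5 lower genes, Cadm1, Ncam1 and Nnmt differed by only -0.01, -0.02 and -0.06. Ncam1 and Nnmt lay below background on each array, so the count of directions shows no shift of the group. Of all genes, 3308 were lower in wild-type cells, 11344 had the same value and 4866 were higher. Their median of 0.00 is fixed by the equal values. These comparisons share arrays.

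To take genes by position alone, the 25 measured genes on each side of Zbtb16 were counted, a group that holds 9 of the 10. Between wild-type and luxoid cells 0 of these 50 were past 2-fold and 0 past 1.5-fold, against 0.430% and 1.43% of all genes. At the shares of all genes a group of 50 would hold 0.215 and 0.717 such genes, so a count of 0 does not set this stretch apart. Above background were 29 of the 50 (58.0%, against 61.3% of all genes), and 25 had the same value on all 3 arrays (46.8% did among all genes). At a lower threshold of 1.2-fold, chosen after the data were seen, 3 of the 50 differed (6.00%, against 6.66% of all genes), namely Usp28, Sdhd and Gm5617. The median log2 difference was 0.00, as over all genes. Since 31 of the 50, and 11344 of all 19518, had the same value in both outer genotypes, this was fixed in advance.

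Sdhd, a membrane subunit of succinate dehydrogenase and the seventeenth measured gene after Zbtb16, was at 1077 in wild-type, 913 in heterozygous and 805 in luxoid cells. Unlike Usp28, it was higher in wild-type cells, by 1.34-fold. Timm8b, a chaperone of mitochondrial import and the next gene, was at 1350, 1108 and 1163. Gm5617, a gene model between Rbm7 and Nnmt, was at 1233, 1022 and 1022, and Rexo2, an oligoribonuclease gene beside Rbm7, at 4597, 4519 and 4799. These 4 genes were named after their values were seen. Of the 50, 7 were higher and 12 lower in wild-type cells, and 31 had the same value in both outer genotypes. In the RefSeq table this span holds 50 protein-coding genes, of which 47 had a probe set of their own.

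**Figure D3:**
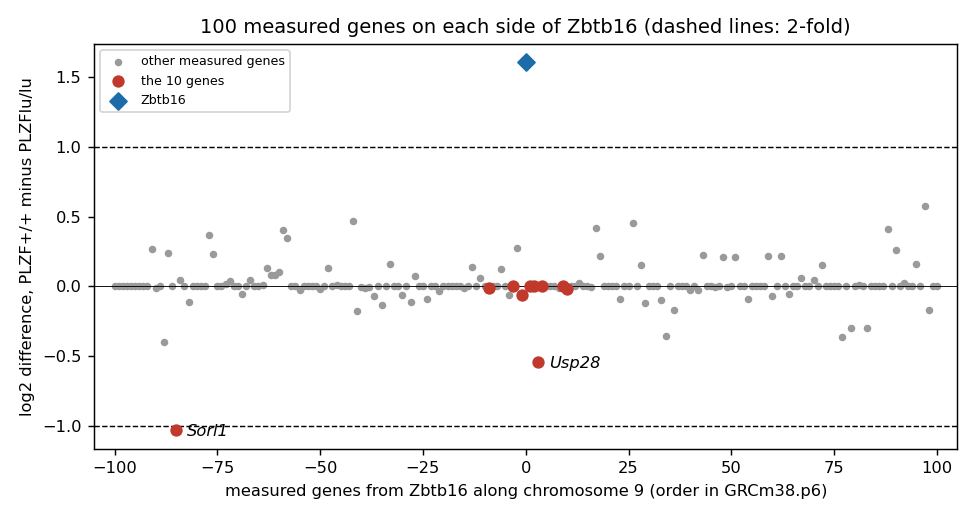
Log2 difference of wild-type (PLZF+/+) minus luxoid (PLZFlu/lu) for the 100 measured genes on each side of Zbtb16, in their order along chromosome 9; red points are the 10 genes, the blue diamond is Zbtb16 and dashed lines mark 2-fold. Zbtb16 stands at 1.61, Usp28 at -0.55 and Sorl1 at -1.03, and Sorl1 is the one gene of the 200 past 2-fold.

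Along the whole of chromosome 9, of the 1139 measured genes other than Zbtb16, 6 were past 2-fold between wild-type and luxoid cells (0.527%), against 0.419% of the 18378 genes elsewhere. They were Sorl1, 1 olfactory receptor below background and 4 more distant genes. Rora, an orphan nuclear receptor gene, stood 222 measured genes from Zbtb16 with a log2 difference of 2.41. Aqp9, a channel for water and small solutes, stood 237 away and was at 1129 in wild-type, 1054 in heterozygous and 402 in luxoid cells. The chemokine receptor gene Ccr2 stood 696 away with a difference of 2.52. Phxr4, on the other side, stood 406 away and was lower in wild-type cells, at 849, 1378 and 1946. At the lower threshold of 1.5-fold there were 11 genes (0.966%, against 1.46% elsewhere).

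**Figure D4:**
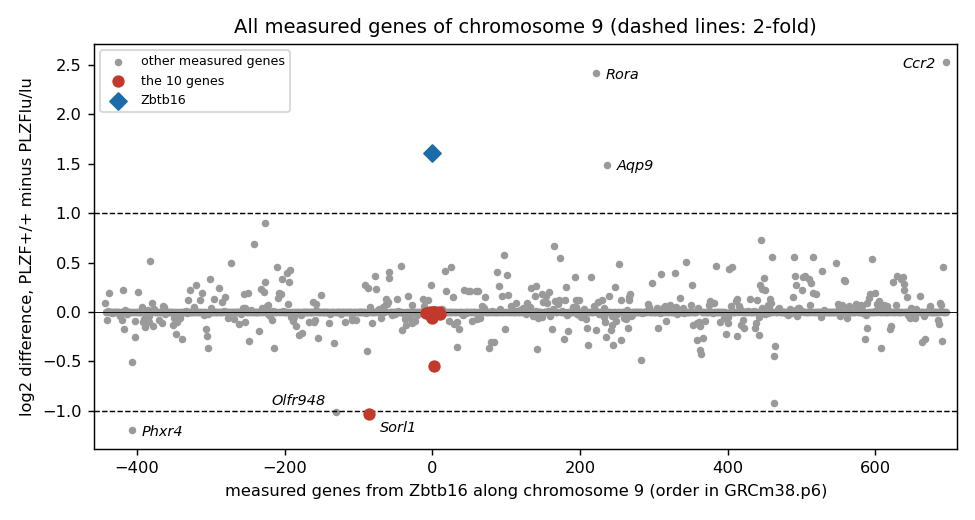
Log2 difference of wild-type (PLZF+/+) minus luxoid (PLZFlu/lu) for each measured gene of chromosome 9 by its place in the gene order, with Zbtb16 at 0; red points are the 10 genes, the blue diamond is Zbtb16, dashed lines mark 2-fold and genes past it are named. Rora (2.41), Aqp9 (1.49) and Ccr2 (2.52) stand above and Phxr4 (-1.20), Olfr948 (-1.01) and Sorl1 (-1.03) below the lines, with Rora and Aqp9 close together in the order.

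Relatives and partners of the 10 gene products that are encoded on other chromosomes were described for comparison. Of 33 listed genes 32 were measured, and 29 of these lie on other chromosomes. None of the 29 was past 1.2-fold between wild-type and luxoid cells, where 6.66% of all genes were. In a group this small a count of 0 does not set it apart. The median log2 difference of the 29 was 0.00, which is fixed by the 17 with the same value in both outer genotypes. Only 14 of the 29 exceeded background (48.3%, against 61.3% of all genes), and 14 had the same value on all 3 arrays. Kntc1, the partner of Zw10 at the kinetochore, was at 113, 113 and 129 in wild-type, heterozygous and luxoid cells, near background. Usp25, the closest relative of Usp28, was at 2781, 2973 and 3040, so that it was lowest in wild-type cells, as Usp28 was, with a log2 difference of -0.13. Sort1, a relative of Sorl1, was at 193, 174 and 172, the opposite order to Sorl1. Nadk, which makes NADP from NAD, was at 1661, 1627 and 1538. Zcchc8 and Mtrex, the partners of Rbm7, were bright, with Mtrex at 1441 on each array and Zcchc8 at 1969, 1969 and 2091.

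Sorl1 and Ncam1 are also known from neurons. Of 6 markers of neurons and glia 2 exceeded background on any array, and their summed intensity was 602 in wild-type, 614 in heterozygous and 681 in luxoid cells. The rise lay in Tubb3, a tubulin gene, at 154, 166 and 233, while Snap25 (73.9) and Syt1 (82.4) lay below background with the same value on each array. The summed level of the T cell markers was 53168, 55041 and 56632. Their part in the difference of Sorl1 was not tested.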

How the data were processed

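RNA of double-sorted thymocytes was hybridised to 3 arrays, 1 per genotype. The authors processed the scans in GenePattern 3.21 (ExpressionFileCreator, MultiplotPreprocess and Multiplot), left out probe sets of normalization controls, and the deposited values are linear intensities. Build mm8 is named in the submitters' processing notes. The methods of background correction, summarisation and scaling were not given in the sources used here. Of the value columns, 0 were unmatched.

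Intensities were used as deposited and compared on the log2 scale. Probe sets with exactly 1 symbol (21065) were named through the platform annotation, with symbols updated by gene identifier to RefSeq GRCm38.p6 for 20983; 1187 had several symbols and 2548 none listed. The brightest probe set stood for a gene. Gene order was taken from RefSeq, and since the builds differ no gene coordinates are given. Promoter windows are RefSeq's own, on GRCm38.p6.

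The named genes are Zbtb16, the 10 genes, neighbours among the 25 nearest on each side past 1.5-fold (there were none), genes of chromosome 9 past 2-fold and above background, and the relatives with the largest differences; others are said to be chosen later. Zcchc8, Mtrex, Oaf, Sc5d and Crtam, the cell type markers and the genes in the closing section were also named after their values were seen. The members and lists were chosen with earlier results of these data known. Alternatives changed the normalization, the constant added, the baseline, the probe set rule, the threshold, the filter on dim genes and the width of the neighbourhood. The counting was tested on simulated data. Python 3.11.15 with numpy 2.4.6, pandas 2.3.3 and matplotlib 3.10.9 was used. The number of arrays limits the precision.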

Additional observations from a re-analysis of the deposited data

How the results depend on the processing

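The count of the 10 genes past 2-fold between wild-type and luxoid cells was 1 as deposited, and it was 0 with 32 added to each intensity and 0 with the wild-type value averaged with the heterozygous one. In both cases Sorl1 fell to -0.97 on the log2 scale; the heterozygous value lies between the others for this gene, so the second fall is built in. The count was 1 with quantile normalization, median centring, the mean over probe sets, 1.5-fold and without dim genes. The mean over probe sets could not change it, since each of the 10 genes had 1 probe set. Sorl1 is above background and past 2-fold, so the filter on dim genes and the 1.5-fold threshold could not lower it. The count among the 50 genes nearest to Zbtb16 was 3 at 1.2-fold, a threshold chosen after seeing the data. It was 0 under each other alternative run, also with 10 or 50 genes on each side. Leaving out dim genes or narrowing to 10 genes on each side could only keep it at 0. Usp28 had a log2 difference of -0.58 with quantile normalization and -0.38 with the wild-type and heterozygous values averaged. Sorl1, the 1 gene of the 10 past 2-fold as deposited, kept its direction. Cadm1 went from -0.01 as deposited to 0.15 with the wild-type and heterozygous values averaged. Quantile normalization moved the 10 genes by at most 0.04 and median centring by less than 0.01. No paired analysis was possible because each genotype has 1 array. Leaving out a replicate was not possible for the same reason.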

Other observations

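Several genes with roles in T cells lie on the same chromosome, within 40 measured genes of Zbtb16. The CD3 genes Cd3g, Cd3d and Cd3e, which encode signalling chains of the T cell receptor complex, stand 40, 39 and 38 measured genes from Zbtb16. Cd3e was at 10550 in wild-type, 11334 in heterozygous and 10599 in luxoid cells, and Cd3d at 3469, 2996 and 3497. The outer genotypes lay close together for both, and the heterozygous value was the highest for Cd3e and the lowest for Cd3d. Il18, the gene of a cytokine whose receptor NKT cells carry, is the fifteenth measured gene after Zbtb16 and was at 26.2 on each array, below background. Dlat, a subunit of pyruvate dehydrogenase, was at 578 on each array, and Bace1, which encodes a protease of amyloid precursor protein, was at 622, 661 and 661.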
